A study of Mus musculus with 18 samples.

Results

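Among 18 spontaneous mammary gland tumors of mice, 7 carried hair follicle RNA at a high level, and these hair-like tumors were set beside the 6 other epithelial tumors of the series. The 13 tumors compared were those with at least 180 CPM (counts scaled to a fixed library total) of Epcam, an adhesion molecule of epithelial cells. The lowest tumor inside that threshold, Cbfb(homo) 1, had 343.8 CPM, and the highest outside it, Cbfb(het) 12, had 120.2 CPM. The 7 hair-like tumors were chosen because their hair keratins and trichohyalin were high in these same libraries. Every difference in RNA between the 2 classes is therefore a description of tumors picked by their RNA. No p-value of a gene or list is given, and the counts of genes past a threshold describe sizes against spread only. Each tumor is named by its Cbfb label and a number given in accession order.

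All groups shared the MMTV-Cre(+) transgene, in which a mouse mammary tumor virus promoter drives Cre recombinase in mammary epithelium, and 1 Pik3ca allele with the activating H1047R change, which the labels write as Pikca(H1047R, het). The Cbfb label was het in 14 tumors of the series, wt in 3 and homo in 1, and the labels do not state which part of Cbfb was altered. The hair-like class held Cbfb(het) 2, 3, 6, 7, 8 and 9 and Cbfb(wt) 3. The other epithelial class held Cbfb(het) 4, 5, 11 and 13, Cbfb(wt) 1 and Cbfb(homo) 1. Each tumor came from its own mouse, per the series design, and the labels give no age, sex, strain, litter or batch. The RNA is from whole tumors, so fewer cells of a type and less RNA per cell cannot be told apart.

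A hair follicle is built in concentric layers. The shaft is made of hair keratins, the acidic type I and the basic type II proteins that pair into filaments, cross-linked in a matrix of keratin-associated proteins (Krtap genes). The inner root sheath around it has keratins of its own and trichohyalin (Tchh), which is citrullinated by peptidylarginine deiminases and hardens the sheath. Wnt signaling through beta-catenin and LEF/TCF factors starts follicles and drives shaft differentiation in the matrix, where Shh and Bmp4 are also made. The mammary gland is a skin appendage that also starts from a Wnt-dependent epithelial bud, but it makes milk proteins and simple keratins instead of hair.

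The 81 hair keratin and Krtap genes found in the files lie on 6 chromosomes, 36 of them on chromosome 11, 25 on 16, 10 on 15, 5 on 7, 3 on 10 and 2 on 1. The 250 bases before the RefSeq start of 3 keratin genes and of Tchh are shown as examples of hair genes that carry the motif letters searched here in different combinations. They come from RefSeq promoters of GRCm38.p6 and read 5′ to 3′ on the strand of the gene. Capitals mark CTTTGAA or TTCAAAG, its reverse complement, which are LEF/TCF motif letters, and TATAAA within the last 50 bases. Krt31 and Krt32 are type I shaft keratins at chr11:100050552-100050801 and chr11:100088270-100088519, both on the minus strand. Tchh is at chr3:93442080-93442329 on the plus strand, and Krt71, an inner root sheath keratin, is at chr15:101743098-101743347 on the minus strand. The last bases of the Krt71 window lie inside the gene span given for Krt71 below, which is from another annotation, GENCODE.
Krt31: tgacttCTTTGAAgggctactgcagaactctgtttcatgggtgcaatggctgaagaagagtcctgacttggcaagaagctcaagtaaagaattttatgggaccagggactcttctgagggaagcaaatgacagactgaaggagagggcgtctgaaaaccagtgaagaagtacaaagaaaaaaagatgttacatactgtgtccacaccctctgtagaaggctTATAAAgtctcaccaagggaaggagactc
Krt32: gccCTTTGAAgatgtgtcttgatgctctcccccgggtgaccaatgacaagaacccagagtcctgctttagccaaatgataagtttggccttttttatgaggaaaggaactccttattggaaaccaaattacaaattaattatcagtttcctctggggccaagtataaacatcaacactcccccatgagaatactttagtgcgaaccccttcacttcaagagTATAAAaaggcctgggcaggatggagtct
Tchh: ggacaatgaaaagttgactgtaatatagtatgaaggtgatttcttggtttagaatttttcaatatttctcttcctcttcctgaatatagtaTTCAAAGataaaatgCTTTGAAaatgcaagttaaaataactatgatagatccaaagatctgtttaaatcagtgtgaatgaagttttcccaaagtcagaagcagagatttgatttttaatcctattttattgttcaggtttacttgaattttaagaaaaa
Krt71: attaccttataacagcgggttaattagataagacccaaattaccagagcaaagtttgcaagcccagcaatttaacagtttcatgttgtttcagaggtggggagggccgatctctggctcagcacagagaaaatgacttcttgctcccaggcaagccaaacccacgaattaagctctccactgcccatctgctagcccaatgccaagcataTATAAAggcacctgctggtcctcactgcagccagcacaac
Krt31 and Krt32 carried the LEF/TCF letters near the far end of the window and TATAAA close to the start. Tchh carried LEF/TCF letters on each strand and no TATAAA, and Krt71 carried TATAAA and none of the LEF/TCF letters. CTTTGAA or CTTTGAT, searched on both strands, was in the 250 bases for 8.63% of 27025 genes with a promoter entry. Among genes with an entry, the letters were upstream of 5 of 9 shaft keratins, 0 of 7 inner root sheath keratins, 10 of 51 Krtap genes and 3 of 13 Wnt target genes. TATAAA, searched on the strand of the gene, was in the last 50 bases for 3.15% of these genes. It was there in 5 of 9 shaft keratins, 6 of 7 inner root sheath keratins, 34 of 51 Krtap genes and 0 of 13 Wnt targets. A match describes letters only.

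The 7 hair-like tumors differed among themselves in how much hair RNA they held. Their summed hair keratins, shaft and sheath together, came to 785 CPM in Cbfb(het) 8, 969.9 in Cbfb(wt) 3, 1397 in Cbfb(het) 6, 1507 in Cbfb(het) 2, 2333 in Cbfb(het) 7, 2571 in Cbfb(het) 3 and 6850.4 in Cbfb(het) 9. The other epithelial tumors held 5.91 CPM in Cbfb(het) 4, 6.75 in Cbfb(wt) 1, 11.2 in Cbfb(homo) 1, 12.9 in Cbfb(het) 11, 71.3 in Cbfb(het) 13 and 132 in Cbfb(het) 5. The 5 tumors under the Epcam threshold held 0.51 to 3.57 CPM. The step between the lowest hair-like tumor and the highest other tumor was thus from 785 to 132 CPM, and Cbfb(het) 5 and 13 stood between the hair-like tumors and the remaining 4. The summed Krtap genes ran from 388 to 3792 CPM in hair-like tumors and from 0.16 to 47.4 CPM in other tumors. The balance of shaft to sheath keratins also varied, from 0.847 in Cbfb(wt) 3 to 2.80 in Cbfb(het) 6 among hair-like tumors. In the intermediate tumors Cbfb(het) 5 and 13 it was 0.373 and 0.149. In Cbfb(het) 11 it was 0.365, and in Cbfb(wt) 1, Cbfb(het) 4 and Cbfb(homo) 1 it was 1.04, 1.10 and 3.48.

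**Figure D1:**
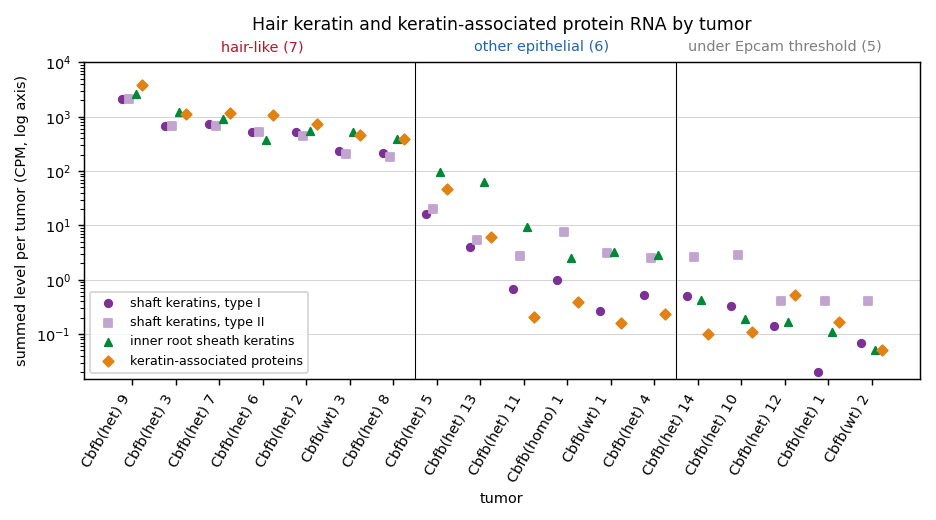
Summed CPM (log axis) of shaft keratins of types I and II, inner root sheath keratins and keratin-associated proteins in each of the 18 tumors, by class and in order of their total. The 7 hair-like tumors hold 388 CPM or more of keratin-associated proteins, Cbfb(het) 5 and 13 lie between the classes, and the type I sum of 0 in Cbfb(het) 1 is drawn at the lower edge.

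Across all genes, 507 of 16866 genes that passed the filter on low counts (3.01%) passed an adjusted p of 0.05 as higher in hair-like tumors and 499 (2.96%) as lower, by edgeR's quasi-likelihood test. For 292 genes (1.73%) the lowest hair-like tumor lay above the highest other tumor, and for 128 (0.759%) the reverse held. These shares are the background for every count of genes below, and since the classes were drawn from the same values nothing is read from them. Overlap is judged on log2 CPM with TMM factors. In deposited TPM, which has no such factors, the classes overlapped for some genes that did not overlap on that scale, among them Cntn2, Tchh, Axin2, Nkd1, Tnfrsf19, Krt71, Krt75, Krt84, Padi3, Cldn3, Cldn4, Peg10, Bmp8a and Tle3. The balance of directions depended on scaling. With library totals in place of TMM factors, 313 genes passed as higher and 640 as lower, and the median log2 fold change of all genes went from -0.02 to -0.134. The number that passed in either direction, 1006 (5.96%), also depended on single tumors. It was 521 without Cbfb(het) 2, 433 without Cbfb(het) 3, 1661 without Cbfb(het) 5, 331 without Cbfb(het) 7, 394 without Cbfb(het) 8, 443 without Cbfb(het) 11, 664 without Cbfb(wt) 3 and 519 without Cbfb(homo) 1.

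The shaft keratins are among the genes that chose the class, so their separation is how the tumors were picked. All 9 type I members passed the filter, with a median log2 fold change of 7.77. Krt35 (ENSMUSG00000048013.9, chr11:100092193-100096241 on the minus strand in GRCm38), a keratin of the early cortex and cuticle, was at 5.29, 6.37 and 7.95 log2 CPM in the lowest, median and highest hair-like tumor. In the other tumors it was at -4.26, -3.94 and -0.38, where -4.26 stands for 0 counts. The log2 fold change was 8.87 ± 0.98 (SE), and 9.89 without Cbfb(het) 5. Krt31, a cortex keratin, was at 5.10, 6.71 and 8.45 log2 CPM in hair-like and -4.26, -2.64 and 0.97 in other tumors, a log2 fold change of 8.04 ± 1.06. Cbfb(het) 9 was highest and Cbfb(wt) 3 lowest among hair-like tumors for both genes, and Cbfb(het) 5 was highest among the others. Krt32, of the cuticle, differed by 5.64 ± 0.49, with -2.0 to -0.09 log2 CPM in other tumors.

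Type II shaft keratins, also used in the choice, summed to 2089 CPM in Cbfb(het) 9, the highest hair-like tumor, and to 178 CPM in Cbfb(het) 8, the lowest. All 6 members in the files passed the filter, with a median log2 fold change of 6.83. Krt81, the type II partner in the cortex, was at 5.68, 7.28 and 9.19 log2 CPM in hair-like tumors and at -4.26, -3.30 and 2.11 in other tumors. Krt83, also of the cortex, was at 5.23, 6.82 and 8.87 against -2.17, -0.88 and 2.47. Per length, in deposited TPM, Krt81 had a median of 133 in hair-like tumors, Krt33a 125, Krt34 114 and Krt31 83.1, while Krt39 and Krt40 stood at 1.55 and 0.89. Krt40 reached at most 0.04 TPM in other tumors and Krt39 at most 0.06. Hair keratins are close copies of one another, so how RSEM shared reads between neighbors such as Krt33a and Krt33b makes single values less certain than sums.

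Keratin-associated proteins, which form the matrix between the filaments, showed 47 of 58 members past the filter. Of these, 46 passed the threshold as higher and 43 did not overlap between the classes, and the exception was Krtap6-1, named after its value was seen, at 3.59 ± 1.16. The median log2 fold change was 6.91, or 6.69 with the 2 genes at 0 counts in all other tumors, Krtap5-2 and Krtap5-3, set to their lower bound. Against 3 counts over the group, these were at least 172-fold and 78.1-fold higher. Krtap13-1 (ENSMUSG00000056350.7, chr16:88728862-88729611 on the plus strand), which encodes a cysteine-rich matrix protein, was at 4.44, 5.42 and 7.81 log2 CPM in hair-like tumors. In other tumors it was at -4.26, -4.26 and -0.98. Without Cbfb(het) 5 the list medians were 9.50 for type I keratins and 9.44 for Krtap genes, the largest shifts that leaving out 1 tumor gave in either list.

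Inner root sheath keratins summed to higher levels than shaft keratins of either type in each epithelial tumor except Cbfb(het) 6 and Cbfb(homo) 1. In Cbfb(het) 5 and 13 the sheath sums were 96.3 and 62.0 CPM. Of 8 sheath keratins, which also chose the class, 7 passed the filter with a median of 5.54. Krt74, at 0.05 to 0.44 TPM in hair-like tumors, did not pass the filter. Krt71 (ENSMUSG00000051879.4, chr15:101733949-101743109 on the minus strand), a keratin whose mutations give curly coats, was at 5.58, 6.51 and 8.31 log2 CPM in hair-like tumors. In other tumors it was at -0.60, 0.80 and 5.02, the last in Cbfb(het) 5, and the log2 fold change of 4.20 ± 0.99 became 6.36 without that tumor. In deposited TPM that tumor, at 21.4, lay above the lowest hair-like tumor, at 20.1. Krt73 had the highest median level per length of the sheath keratins, 134 TPM in hair-like tumors, and reached 27.9 TPM in other tumors. Krt28 was at 4.76, 6.06 and 8.14 log2 CPM against -3.69, -2.45 and 1.77.

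Tchh (ENSMUSG00000052415.5, chr3:93442330-93449077 on the plus strand) was itself used to choose the class. It was at 8.89, 9.83 and 10.78 log2 CPM in hair-like tumors and at 1.74, 5.37 and 8.58 in other tumors. Its lowest hair-like value on this scale, in Cbfb(het) 6, and the 8.58 of Cbfb(het) 13 were thus close. In deposited TPM the classes overlapped, with 114 in Cbfb(het) 13 and 78.5 in Cbfb(het) 8, the lowest hair-like tumor there. The log2 fold change was 3.57 ± 0.91, or 5.09 without Cbfb(het) 13. The list of sheath proteins that are no keratins also holds S100a3 of the cuticle. Of its other 8 members besides Tchh, 4 passed the threshold as higher: Tchhl1, Padi1, Padi3 and S100a3. S100a3, a calcium-binding cuticle protein that Padi3 citrullinates, was at 4.85, 6.26 and 8.0 log2 CPM in hair-like tumors and at -2.17, -0.01 and 1.65 in other tumors. Padi3, the deiminase, was at 4.68, 5.86 and 7.68 against 1.71, 3.10 and 4.51, and overlapped in TPM. Tchh itself also passed as higher, and its call was lost in 9 of 13 fits that left out 1 tumor. The call of Padi1 was lost in 11 of these fits, that of Tchhl1 in 4, and those of Padi3 and S100a3 in 0.

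Keratins of the companion layer and the outer root sheath did not follow the shaft. Of 7 members, 1 passed the threshold as higher, Krt75 of the companion layer, and the list median was -0.38, with a sign that became positive on log2(TPM + 1), in limma-voom, among Cbfb(het) tumors alone, against all 11 other tumors and in fits with a covariate for luminal genes or, at 2.26, for milk genes. Krt75 was at 2.89, 4.50 and 5.42 log2 CPM in hair-like tumors and at -3.63, 0.53 and 2.06 in other tumors. In TPM the highest other tumor, at 2.21, lay above the lowest hair-like tumor, at 1.99. Outside the 13 tumors, Cbfb(het) 14 and Cbfb(het) 10, both under the Epcam threshold, held 135 and 127 TPM of Krt75, against 17.2 TPM in the highest hair-like tumor. Krt6a, a keratin of the outer sheath and of wounded epidermis, was at 9.74, 11.35 and 12.38 log2 CPM in hair-like and at 7.09, 12.22 and 13.12 in other tumors. Krt79, of the infundibulum and the sebaceous duct, was at 8.62, 10.92 and 11.93 against 3.32, 8.71 and 10.89. The classes thus overlapped in Krt6a and Krt79, and the low value of Krt79 was in Cbfb(het) 4.

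**Figure D2:**
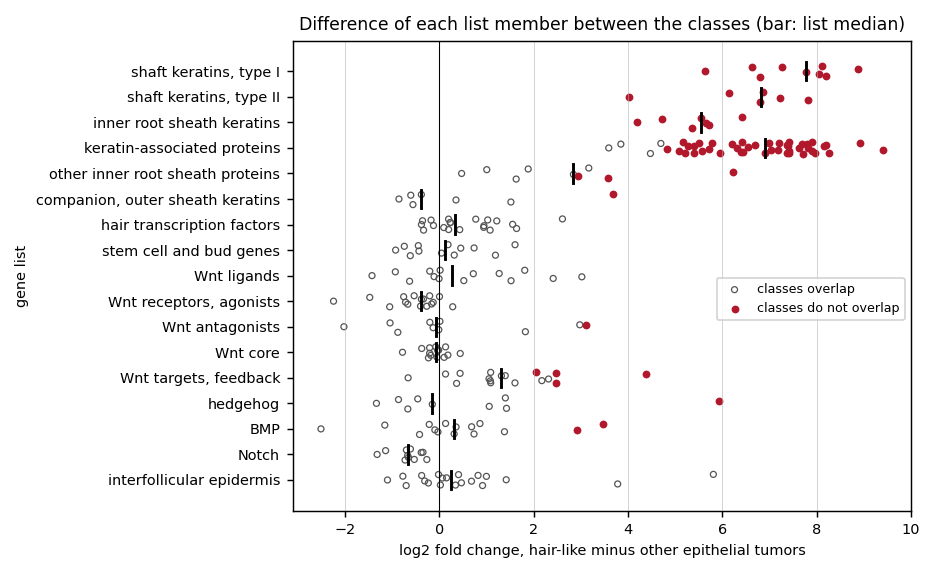
Log2 fold change (hair-like minus other epithelial tumors) of each list member that passed the filter, with the list median as a bar and filled points for genes whose classes do not overlap. Medians run from 5.54 to 7.77 for hair keratins and Krtap genes, and stand at 1.32 for Wnt targets and at -0.66 for Notch genes.

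Transcription factors of the hair matrix had smaller fold changes than the structural genes. The hair keratins among those chose the class, so their larger sizes follow in part from that choice. Of 20 factors 1 passed the threshold as higher, Dlx3, and the list median was 0.33. Dlx3, a homeobox factor required for shaft and sheath differentiation, was at 4.60, 5.43 and 6.62 log2 CPM in hair-like tumors and at 1.96, 2.71 and 4.66 in other tumors. It differed by 2.61 ± 0.47, or by 3.22 without Cbfb(het) 13, the highest of the other tumors. Foxn1, the factor missing in nude mice, was at 1.99, 2.93 and 4.27 against -2.60, 1.52 and 2.75. Sox21, of the cuticle, was at 2.91, 3.56 and 4.46 against 0.55, 1.87 and 3.55. Neither passed the threshold. Hoxc13, a homeobox activator of shaft keratin genes, named after its values were seen, was at 1.75, 3.04 and 4.70 log2 CPM in hair-like tumors and at -0.08, 1.43 and 4.95 in other tumors. Its highest level among the 13 tumors was in Cbfb(homo) 1, where hair keratins came to 11.2 CPM, and its difference of 0.24 ± 0.78 turned to -0.21 without Cbfb(het) 9.

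Wnt target and feedback genes were the signaling list that stood highest in hair-like tumors. Of 20 genes 17 passed the filter, 8 passed the threshold as higher and 0 as lower, 4 did not overlap on log2 CPM (3 of these, Axin2, Nkd1 and Tnfrsf19, overlapped in TPM), and the median log2 fold change was 1.32. The 8 were Sp5, Tnfrsf19, Lef1, Nkd1, Ascl2, Znrf3, Rnf43 and Tcf7. Axin2 (ENSMUSG00000000142.15, chr11:108920349-108950783 on the plus strand), the feedback inhibitor used as a general readout of beta-catenin signaling, was at 6.22, 6.40 and 7.26 log2 CPM in hair-like tumors. In other tumors it was at 0.96, 3.04 and 5.89. The classes did not overlap on this scale, but in deposited TPM Cbfb(het) 13, the highest other tumor, had 28.3 against 23.0 and 25.7 in the hair-like tumors Cbfb(het) 8 and 2. The log2 fold change was 2.46 ± 0.69, or 3.45 without that tumor. Axin2 did not pass the threshold in the fit of all 13 tumors, and it did without Cbfb(het) 13.

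Lef1 (ENSMUSG00000027985.14, chr3:131110471-131224356 on the plus strand), the DNA-binding partner of beta-catenin in the hair matrix, was at 1.47, 2.19 and 3.55 log2 CPM in hair-like tumors. In other tumors it was at -1.97, -0.08 and 1.77. The classes overlapped through Cbfb(homo) 1, and the difference of 2.17 ± 0.56 was 2.85 without it. Lef1 was low per length, with at most 6.45 TPM in a hair-like tumor, and reached 7.24 TPM in a tumor under the Epcam threshold. Nkd1, which restrains Dishevelled, was at 3.08, 3.72 and 4.64 log2 CPM against -0.66, 1.61 and 2.83. In TPM it overlapped, with up to 4.05 in other tumors and 3.37 in the lowest hair-like tumor. Tnfrsf19, a receptor marking follicle progenitors, was at 5.49, 6.21 and 6.73 log2 CPM against -0.41, 3.43 and 5.45, and also overlapped in TPM. Notum, an enzyme that inactivates Wnt proteins, was at 2.47, 5.39 and 5.71 against -3.63, -0.51 and 5.16, where the low hair-like tumor was Cbfb(wt) 3 and the high other tumor was Cbfb(het) 13. Its difference of 2.31 ± 1.15 was 4.72 without Cbfb(het) 13. Among fits that left out 1 tumor, Znrf3 passed in 13 of 13 and Sp5 in the 7 that kept it past the filter. Nkd1, Rnf43 and Tcf7 each missed the threshold in 4 of 13, Lef1 in 8, Ascl2 in 9 and Tnfrsf19 in 11, with log2 fold changes that remained positive.

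**Figure D3:**
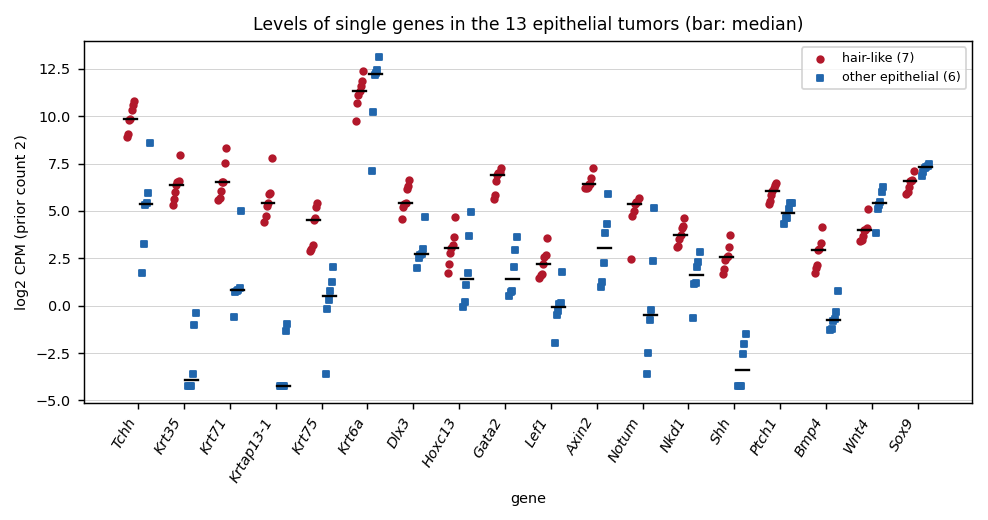
Log2 CPM of 18 genes in the 7 hair-like and 6 other epithelial tumors, 1 point per tumor with the class median as a bar. Hair keratins, Krtap13-1, Gata2, Shh and Bmp4 do not overlap between the classes, Axin2 reaches 5.89 in 1 other tumor against at least 6.22 in hair-like tumors, and Hoxc13, Krt6a and Sox9 overlap.

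Upstream of these targets few genes passed the threshold. Wnt ligands had a median of 0.27 with 0 of 14 passing as higher and 1 as lower. The sign of that median turned without any 1 of Cbfb(het) 2, 3, 7 and 9, to -0.15 at the lowest. Receptors and R-spondins had a median of -0.39, with 14 of 16 fold changes negative, 0 higher and 1 lower. Secreted antagonists and Kremen receptors had a median of -0.07 with 1 of 10 higher, and its sign turned in limma-voom, with no filter, with either covariate and without Cbfb(homo) 1. The 14 core components of the pathway had a median of -0.06, which was 0.004 among Cbfb(het) tumors alone and 0.007 with the milk covariate, and 0 passed in edgeR, limma-voom or DESeq2, with 2 at an unadjusted p under 0.05. Wnt3, a ligand of the hair matrix, was at 0.57, 1.75 and 3.03 log2 CPM in hair-like tumors and at -4.26, -3.65 and 1.28 in other tumors, the last in Cbfb(het) 11. It did not pass the threshold at 3.02 ± 1.15, and it did at 6.23 without Cbfb(het) 11. Wnt10b, a ligand of both hair and mammary buds, was at 2.09, 3.09 and 4.44 against -1.84, 1.75 and 2.81. Wnt4, which acts in mammary branching, was at 3.43, 3.97 and 5.12 against 3.83, 5.39 and 6.25. It passed as lower, and missed the threshold in 10 of 13 fits that left out 1 tumor. Rspo1, a secreted agonist, passed as lower at -2.24 ± 0.58 and missed in 9 of 13. Kremen2, a Dickkopf receptor, passed as higher at 3.10 ± 0.57, at 0.04 to 2.54 log2 CPM against -3.20 to -0.47, in 13 of 13 such fits.

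Hedgehog and BMP ligands of the hair matrix were higher in hair-like tumors, while the list medians were -0.15 for hedgehog and 0.31 for BMP genes. The hedgehog median became positive with no filter (0.061), with the luminal covariate (1.04) and with the milk covariate (0.91). Shh (ENSMUSG00000002633.4, chr5:28456815-28467256 on the minus strand), the ligand of the growing follicle, was at 1.65, 2.56 and 3.70 log2 CPM in hair-like tumors and at -4.26, -3.40 and -1.51 in other tumors. The difference was 5.93 ± 0.83, or 6.61 without Cbfb(het) 13, and per length the level in hair-like tumors was low, at 1.69 to 6.05 TPM. Shh and its receptor and target Ptch1 passed as higher, and the transducer Smo passed as lower, at -0.67 ± 0.15. Ptch1 was at 5.37, 6.06 and 6.49 log2 CPM against 4.29, 4.88 and 5.42, so that the classes met at their edges. Smo missed the threshold in 3 of 13 fits that left out 1 tumor and Ptch1 in 1. Gli1, a further target, was at 3.0, 3.65 and 4.45 against -0.83, 1.96 and 3.79 and did not pass.

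Bmp4 (ENSMUSG00000021835.15, chr14:46383520-46390669 on the minus strand), a ligand that promotes shaft differentiation, was at 1.73, 2.94 and 4.16 log2 CPM in hair-like tumors and at -1.30, -0.76 and 0.76 in other tumors. It differed by 3.48 ± 0.51 and stayed past the threshold in 13 of 13 fits that left out 1 tumor. The tumors under the Epcam threshold held up to 19.9 TPM of it, close to the 20.6 TPM of the highest hair-like tumor. In the BMP list 3 of 15 genes passed as higher, Bmp4, Bmp2 and Bmp8a, and 1 as lower, the receptor gene Bmpr1b. Bmp2 missed the threshold in 10 of 13 fits that left out 1 tumor, Bmpr1b in 5 and Bmp8a in 2. In the Notch list the median was -0.66, all 11 genes past the filter had negative fold changes and 0 passed the threshold in edgeR, with 5 at an unadjusted p under 0.05, 0 in limma-voom and 4 in DESeq2. Jag1, a ligand of this list, was at 5.92, 6.22 and 6.86 log2 CPM against 6.32, 7.36 and 8.56. Hey2, whose relatives Hey1 and Heyl are in the Notch list, was counted in the dermal papilla list instead. It passed as lower there and missed the threshold in 1 of 13 fits that left out 1 tumor. Of the 4 genes of the ectodysplasin pathway, which starts hair and mammary placodes, 1 passed as lower, the adaptor Edaradd at -1.54 ± 0.42, and it missed in 10 of 13 fits that left out 1 tumor.

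Lists of other parts of the follicle and of skin had medians between -0.86 and 0.35. Stem cell and bud genes had a median of 0.12 with 0 of 12 higher and 2 lower, Sox9 and Lrig1, each lost in 8 of 13 fits that left out 1 tumor, and the sign of the median turned on log2(TPM + 1), in limma-voom, with either covariate and, at -0.45, without Cbfb(het) 3. Sox9, a factor of bud and outer sheath stem cells, was at 5.90, 6.58 and 7.13 log2 CPM in hair-like and at 6.85, 7.31 and 7.46 in other tumors. Interfollicular epidermis genes had a median of 0.25, slightly negative without Cbfb(het) 3 or Cbfb(het) 4, with 1 of 20 higher, Krt2, at 0.07 to 2.36 TPM against at most 0.1. Sprr1a, a cornified envelope protein, was at 7.93, 9.82 and 10.67 log2 CPM against 5.71, 8.93 and 9.70, which is high in both classes. In the desmosome list 1 of 12 genes passed as higher, Dsg4, the desmoglein of the hair cortex, at 1.63, 3.54 and 4.29 against -4.26, -2.55 and 1.66, and it missed in 12 of 13 fits that left out 1 tumor. Melanocyte genes, which mark pigmented hair bulbs, had 3 of 10 members past the filter, Pmel, Mitf and Sox10. Of these 0 passed the threshold in edgeR, with 1 at an unadjusted p under 0.05, in limma-voom and in DESeq2. Sox10, which is also in the alveolar list, was at 7.49 to 8.05 log2 CPM in hair-like and at 4.77 to 7.74 in other tumors. Tyr, the pigment enzyme that defines melanocytes, reached at most 0.01 TPM in hair-like tumors. Sebaceous gland genes had a median of -0.86 with 0 of 9 passing in edgeR, 3 at an unadjusted p under 0.05, 0 in limma-voom and 1 in DESeq2. Elovl3, a sebaceous fatty acid elongase, was at 1.12, 2.09 and 3.17 against -2.53, 1.42 and 7.10, the last in Cbfb(het) 5, and its difference of -2.35 turned to 1.13 without that tumor. Dermal papilla genes had a median of -0.67 with 2 of 11 lower, Crabp1 and Hey2. Crabp1, a retinoic acid carrier, was at -1.56, 0.14 and 1.45 log2 CPM against 1.49, 3.68 and 4.62.

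Milk genes shared the tumors unevenly with the hair genes. The milk share is the share of all counts on Csn1s1, Csn1s2a, Csn1s2b, Csn2, Csn3, Wap, Lalba and Glycam1. It was 14.9% in Cbfb(het) 8, 5.94% in Cbfb(wt) 3, 7.59% in Cbfb(het) 6, 13.04% in Cbfb(het) 2, 2.21% in Cbfb(het) 7, 2.23% in Cbfb(het) 3 and 0.772% in Cbfb(het) 9, in rising order of their hair keratins. The 3 hair-like tumors with the most hair keratin RNA had the 3 lowest milk shares. In other tumors the share was 11.02% in Cbfb(het) 4 and 0.109% to 0.751% in the other 5. The milk list adds further genes to those of the share. Its median was 1.07, and 4.71 without Cbfb(het) 4, with 0 of 12 genes past the threshold in edgeR, limma-voom or DESeq2 and 1 at an unadjusted p under 0.05. Csn2, beta-casein, was at 10.33, 14.75 and 16.09 log2 CPM in hair-like and at 3.55, 7.82 and 15.71 in other tumors. Milk RNA takes counts from the same library total as hair RNA, and its part in this order was not tested.

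**Figure D4:**
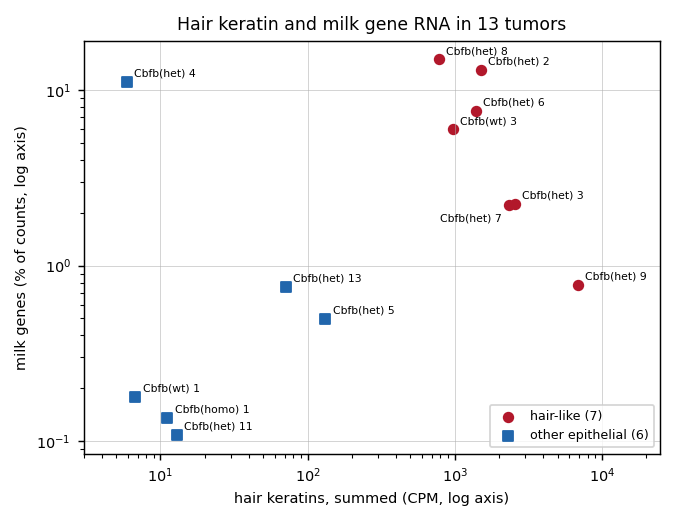
Summed hair keratins (CPM, log axis) against the share of counts on milk genes (%, log axis) in the 13 epithelial tumors, 1 point per tumor. Cbfb(het) 9, at 6850.4 CPM of hair keratins, has the lowest milk share of the hair-like tumors, 0.772%, and Cbfb(het) 4 is the other tumor with a share of 11.02%.

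The mammary lineage lists were present in both classes. Epcam was at 9.14, 9.31 and 9.55 log2 CPM in hair-like and at 8.40, 9.24 and 9.43 in other tumors, a difference of 0.22 ± 0.16 whose sign turned on log2(TPM + 1). Luminal epithelial genes had a median of 0.19, also of the opposite sign on that scale, with 3 of 12 higher, the claudins Cldn3, Cldn4 and Cldn7 of tight junctions. Cldn4 was at 8.37, 8.79 and 9.10 log2 CPM against 6.54, 7.40 and 8.23. In TPM it overlapped, with 314 in Cbfb(het) 13 and 269 in Cbfb(homo) 1 against 214 in Cbfb(het) 2, the lowest hair-like tumor. The call was lost in 4 of 13 fits that left out 1 tumor for Cldn4, in 5 for Cldn3 and in 10 for Cldn7. Hormone-sensing luminal genes had a median of -1.45, and 10 of 11 had negative fold changes with 1 past the threshold, Esr1, the estrogen receptor, which missed in 11 of 13 such fits. Foxa1, its pioneer factor, was at -2.15, 1.12 and 4.17 log2 CPM against 2.66, 4.45 and 6.66, and Pgr, the progesterone receptor, at -1.77, -0.22 and 2.29 against 1.40, 2.10 and 5.72. Basal and myoepithelial genes had a median of -1.21, all 14 with negative fold changes and 0 past the threshold in edgeR, with 9 at an unadjusted p under 0.05, 0 in limma-voom and 7 in DESeq2. Acta2, smooth muscle actin, was at 4.69, 6.76 and 7.89 against 6.43, 8.21 and 9.92.

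Lists of other cell types are given because tumors differ in the tissue they hold. Their medians were -0.48 for fibroblasts, -0.54 for adipocytes, -0.56 for endothelial cells and pericytes, -0.17 for macrophages, 0.21 for neutrophils, -0.54 for B and plasma cells and 1.17 for mast cells, and 0 of their 60 genes passed in edgeR or limma-voom, with 6 at an unadjusted p under 0.05 and 3 in DESeq2. The signs of these medians were not stable. Without Cbfb(het) 5 the median was 0.046 for fibroblasts, 0.047 for macrophages and 0.33 for B and plasma cells. It was 1.41 for adipocytes without Cbfb(het) 11, -0.086 for mast cells without Cbfb(het) 3, and -0.046 and -0.084 for neutrophils without Cbfb(het) 3 and 9. The adipocyte median was also positive on log2(TPM + 1), in limma-voom and with either covariate, that of endothelial cells with the luminal covariate, and those of fibroblasts and macrophages with the milk covariate, and the neutrophil median was negative against all other tumors. The T and NK cell list had a median of -1.12, or -0.20 without Cbfb(het) 5, with 1 of 9 lower. That gene, Cd4, was at 0.01, 1.00 and 1.73 log2 CPM in hair-like and at 2.25, 2.80 and 3.05 in other tumors. Skeletal muscle genes had a median of -4.79 with 0 of 6 passing in edgeR or limma-voom, 6 at an unadjusted p under 0.05 and 2 in DESeq2, and -1.81 without Cbfb(het) 5. Acta1, skeletal muscle actin, was at -0.91, 3.40 and 10.42 in other tumors, the last in Cbfb(het) 5, against -1.63, -0.82 and 5.52. The same tumor was thus the highest of the other class for hair keratins, Elovl3 and Acta1. The median of cell cycle genes was 0.49, with all 18 fold changes positive and 2 past the threshold, Rrm2 and Plk1. Rrm2, a ribonucleotide reductase subunit, was at 5.72, 6.06 and 6.49 against 4.90, 5.18 and 5.82. Of 10 genes of mesenchymal transition all had negative fold changes and 1 passed as lower, the repressor Snai2, at 2.97, 3.73 and 3.90 against 3.99, 4.92 and 5.50. Cartilage and bone genes had 1 of 6 higher, Sp7, at no more than 0.76 TPM. The part of these cell types in the hair gene differences was not tested.

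**Figure D5:**
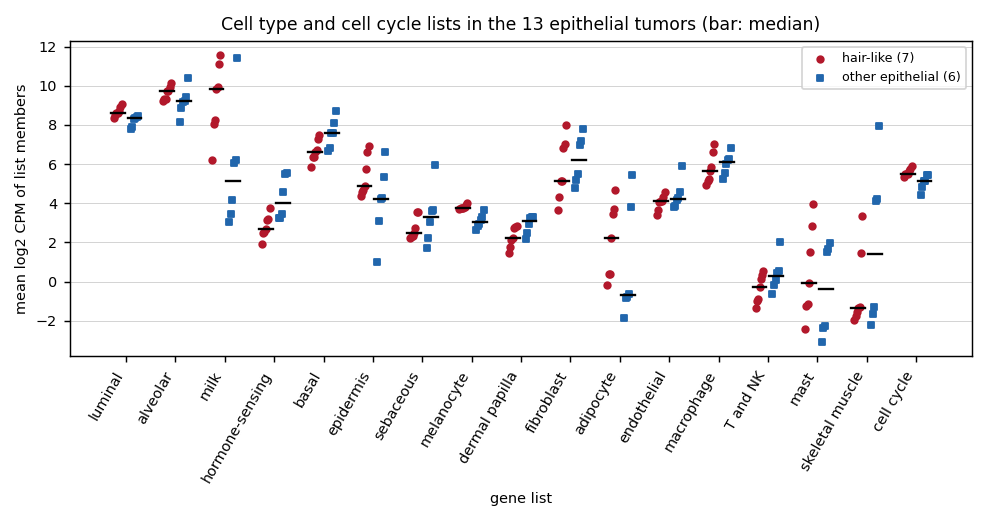
Mean log2 CPM of the members of 17 cell type and cell cycle lists in the 13 epithelial tumors, 1 point per tumor with the class median as a bar. The classes overlap in the lists shown except the melanocyte list, left with Pmel, Mitf and Sox10 past the filter (at least 3.69 against at most 3.66). Cbfb(het) 5 is the high other tumor for sebaceous and skeletal muscle genes.

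Outside all lists, 100 higher and 80 lower genes passed the threshold without overlap on log2 CPM at a mean of at least 3 log2 CPM in the higher class, and 12 of each were named by size. The higher ones were Mt4, Gprc5d, Lyg2, Calhm4, Crym, Vsig8, Nup62cl, Gata2, Prr9, Peg10, Golga7b and Bex1. Mt4, a metallothionein of stratified squamous epithelia, was at 2.83, 4.18 and 5.78 log2 CPM against -4.26, -2.98 and -1.83. Gprc5d, an orphan receptor of the hair cortex, was at 4.38, 5.57 and 7.24 against -4.26, -3.28 and 0.29. Gata2 (ENSMUSG00000015053.14, chr6:88193891-88207032 on the plus strand), a zinc finger transcription factor, was at 5.65, 6.90 and 7.25 against 0.49, 1.42 and 3.60. It differed by 4.48 ± 0.58, more than any of the 20 listed hair factors. Its order among hair-like tumors was not that of the keratins, since Cbfb(het) 9 was lowest on this scale. In TPM Cbfb(het) 2 was lowest, at 21.78 against 22.77 in Cbfb(het) 9. Cbfb(wt) 2, under the Epcam threshold, held 21.83 TPM of Gata2. Peg10, an imprinted gene of retrotransposon origin, was at 4.05, 6.13 and 7.51 log2 CPM against 0.50, 1.57 and 3.66, overlapped in TPM, and reached 66.8 TPM in a tumor under the Epcam threshold against 41.4 TPM in the highest hair-like tumor.

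The lower ones were Slc5a7, Lrrc4, Lingo1, Fcgbp, Gbp9, Tril, Matn2, Pdlim3, Col23a1, Vcam1, Kif5c and Cntn2. Fcgbp, a mucus protein that binds IgG, was at 4.99, 7.95 and 8.54 log2 CPM in hair-like tumors and at 9.51, 9.94 and 10.47 in other tumors, a difference of -2.36 ± 0.51 that missed the threshold without Cbfb(het) 7, at -2.24. Vcam1, an adhesion molecule of leukocyte traffic, was at 3.88, 4.90 and 5.39 against 5.84, 6.52 and 7.32. Slc5a7, the choline transporter, was at -2.82, 0.56 and 2.25 against 2.73, 4.38 and 4.79. Fold changes of the lower genes were smaller than those of the higher genes, from -1.62 to -3.34 against 3.46 to 7.80.

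Tumors labelled het and tumors labelled wt occurred in both classes. The label was het in 6 of 7 hair-like and 4 of 6 other tumors, and a two-sided Fisher's exact test gave p = 0.559, where these numbers could reach 0.0699 at the least. For wt against the rest, 1 of 7 against 1 of 6, the same exact test gave p = 1.0. Cbfb itself, which encodes the partner of RUNX factors and was named after its values were seen, was at 5.28, 5.45 and 5.71 log2 CPM in hair-like and at 4.22, 5.78 and 5.90 in other tumors, the lowest in Cbfb(homo) 1. Among the 7 genes of the RUNX complex list 1 passed as higher, the corepressor Tle3 at 0.47 ± 0.12, and it missed in 7 of 13 fits that left out 1 tumor. Restricted to Cbfb(het) tumors, 6 hair-like against 4 others, 162 of 17116 genes (0.946%) passed as higher and 60 (0.351%) as lower, and 194 of these 222 genes (1.3%) were among the 1006. In the same 10 tumors 602 genes (3.52%) lay above and 401 (2.34%) below without overlap. Hair keratin and Krtap genes made up 49 of the 162, and the hair keratins among them are genes that chose the class.

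The total counts of the classes overlapped. The 18 tumors held 33210207 to 40974130 rounded counts, with a mean of 37385679 ± 2142112 in hair-like tumors (SD, n = 7) and 38858505 ± 1491080 in other tumors (SD, n = 6). A two-sided exact permutation test over 1716 splits gave p = 0.189. The library with the closest log2(TPM + 1) profile was another hair-like tumor for each of the 7, with a correlation across all genes of 0.988 to 0.990. For the 6 other tumors the closest library was at 0.971 to 0.984, and for Cbfb(het) 4, 5 and 13 it was a hair-like tumor. Under the Epcam threshold, Cbfb(het) 10 and Cbfb(het) 14 were each other's closest library, at 0.996, and the cause was not tested.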

How the data were processed

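RNA of 18 mouse mammary tumors was measured by bulk sequencing of stranded mRNA libraries, per the labels' protocols. The authors deposited a gene table per tumor. Its expected counts, per the file headers, are RSEM estimates that share ambiguous reads among genes, and 6.20% to 7.19% per tumor were not whole, so they were rounded. Its deposited TPM values are scaled for gene length and do not hold depth. The submitters' processing notes list mm10 as the build, with STAR 2.7.0f and RSEM 1.3.1 as tools. For strand setting and annotation release, nothing is stated in those notes. The 55450 gene IDs were matched to GENCODE M21 (GRCm38), all with success, for positions.

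The classes, gene lists and tests were chosen with earlier results of these data known. Counts of the 13 epithelial tumors were filtered with filterByExpr, scaled with TMM factors and compared with edgeR 4.0.16 in R 4.3.3 (robust quasi-likelihood F-test, no covariate), with Benjamini-Hochberg adjustment over 16866 genes and a threshold of 0.05. The test was checked on simulated counts. Standard errors were computed as log2 fold change over root F. Levels are log2 CPM with a prior count of 2, and a list's level is the mean of its members past the filter. Cbfb labels were compared by Fisher's exact test and depth by an exact permutation test. The animal was the unit in each test. The gene tests and the permutation test rest on the spread between animals, and Fisher's test on counts of animals. Alternatives used limma 3.58.1 (voom), DESeq2 1.42.0, other scalings, no filter, covariates, other sets of tumors and each tumor left out.

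The rule for named genes took Tchh, Axin2, Lef1 and Epcam, up to 4 genes of largest absolute log2 fold change per list (8 for keratin, transcription factor and Wnt lists) with a mean of at least 1 log2 CPM in a class, and 12 genes per direction outside all lists, passing over unnamed models and antigen receptor segments. Not every gene it took is named. Hoxc13, Cbfb, Smo, Esr1, Tyr, Pmel, Sp5, Sp7, Tcf7, Rnf43, Ascl2, Padi1, Bmp8a, Lrig1, Krt2, Krt39, Krt40, Krt74, Krtap5-2, Krtap5-3 and Krtap6-1 were named after their values were seen, most because they make up a count of genes. The genes of the milk share are named to define it. The count of hedgehog genes that passed is not reported here.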

Additional observations from a re-analysis of the deposited data

Results flagged for a closer look

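In 204 sets of values, each a gene or share within 1 class, 15 had a tumor farther from the others than Dixon's 95% limit, and chance alone flags about 1 in 20. Of these, 11 were in the other epithelial class. Cbfb(het) 5 was high there for Krt71 (5.02 log2 CPM) and Krtap21-1 (-2.04 log2 CPM, with 0 counts in the others). Cbfb(het) 13 was high for Cux1 (7.43 log2 CPM) and Tcf7 (5.13 log2 CPM) and low for Lrig1 (6.70 log2 CPM). Cbfb(het) 11 was high for Wnt3 (1.28 log2 CPM). Cbfb(het) 4 was low for Wnt10b (-1.84 log2 CPM) and Sprr1a (5.71 log2 CPM) and high for the milk share (11.02% of counts). Cbfb(homo) 1 was low for Cbfb (4.22 log2 CPM) and Slc5a7 (2.73 log2 CPM). In the hair-like class, Cbfb(wt) 3 was low for Notum (2.47 log2 CPM) and Krt78 (2.64 log2 CPM), Cbfb(het) 9 was high for Wnt4 (5.12 log2 CPM) and Cbfb(het) 6 was low for Krt2 (-2.46 log2 CPM).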

How the results depend on the processing

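Every list of hair keratins and Krtap genes kept a positive median in all 9 other fits, on log2(TPM + 1) and with each tumor left out. Hair keratins chose the class, so that sign follows from how the tumors were picked. Of the 69 hair keratin and Krtap genes past the filter, 68 passed as higher in the main fit and 26 with the luminal covariate. Among all 16866 genes, 507 and 57 did. Counts of genes past the threshold depended on the setting, and the cause was not tested. With library totals 313 genes passed as higher, and with no filter 316 as lower. Cbfb(het) tumors alone gave 222 genes (162 higher, 60 lower), with 602 above and 401 below without overlap in smaller groups. Against all 11 other tumors there were 3366 (1379 higher, 1987 lower), with a luminal covariate 58 (57 higher, 1 lower), with a milk covariate 470 (332 higher, 138 lower) and in DESeq2 2437 (1125 higher, 1312 lower). On log2(TPM + 1), 152 genes lay above and 267 below. With each tumor left out, 331 to 1661 passed (227 to 992 higher, 104 to 669 lower), and 282 to 627 lay above and 129 to 255 below.

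List medians that moved by more than the spread between tumors were as follows. The Wnt core stood at -0.18 with library totals and -0.34 on log2(TPM + 1), and Notch genes at -0.30 in Cbfb(het) tumors alone. Against all other tumors, luminal genes stood at 0.92, alveolar genes at 0.69, fibroblast genes at -2.28, cartilage genes at -1.18 and mesenchymal genes at -2.68. With the luminal covariate, ectodysplasin genes stood at 0.066, hedgehog genes at 1.04 and luminal genes at -0.14. With the milk covariate, outer sheath keratins stood at 2.26, hair factors at 1.18, Wnt ligands at 1.03, hedgehog genes at 0.91 and epidermis genes at 3.07. Type I keratins stood at 9.50 in limma-voom and, on log2(TPM + 1), at 5.75, with 5.15 for type II keratins and 3.81 for Krtap genes. With each tumor left out, the median ran from 7.41 to 9.50 for type I keratins, 6.47 to 9.44 for Krtap genes, -0.45 to 0.18 for stem cell and bud genes, 0.27 to 0.99 for melanocyte genes, 0.67 to 4.71 for milk genes and -1.31 to -0.20 for T and NK cells.

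Among named genes the sign turned for Krt75 against all other tumors (-1.30), for Krt6a in Cbfb(het) tumors alone (0.11), with the milk covariate (1.71) and in limma-voom (0.034), for Elovl3 in limma-voom (0.93) and for Epcam with the luminal covariate (-0.20) and on log2(TPM + 1) (-0.016). With each tumor left out, Hoxc13 ran from -0.21 to 1.33 and Elovl3 from -2.61 to 1.13. No paired analysis was possible because the labels number every tumor as repeat 1, and the numbers used here follow accession order. Differences near 0 counts depend on the prior count, and the intervals of precision cover the 13 animals only.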
